A study of Mus musculus with 4 samples.

Results

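The genes described here are 53 of the 230 genes that were labeled as lack of response in a sequencing experiment on mouse brain. They were chosen by measured values: their level was lower in the pentylenetetrazole (PTZ) library than in the sham library of tau+/+ mice, and Wnt10a and Wnt9a, which also met that rule, were left out. Of all 230 genes, 55 (23.9%) were lower after PTZ in tau+/+, and the remaining 175 were higher. Among the 53 members, 22 have a zinc finger symbol (starting with Zfp, Zbtb, Zkscan or Zscan, or equal to Zik1 or Rbak), and they are set beside the other 31. Total RNA was sequenced from brain of C57Bl/6 mice that were 6 weeks old. The 4 libraries were tau+/+ sham, tau+/+ PTZ, tau-/- sham and tau-/- PTZ, with 1 library per condition, and the PTZ mice had received 50 mg/kg by intraperitoneal injection 1 h earlier. In the tau-/- line the coding sequence of green fluorescent protein sits in exon 1 of Mapt, the gene of tau, so tau is missing from all cells and throughout life, and the reporter is carried by these mice and not by tau+/+ mice. Seizures of comparable strength were a condition for sequencing PTZ mice, and how many mice went into each library is not given in the sources used here. The labels name brain as the source but also speak of primary neurons, and Mapt is not among the listed genes, so tissue and genotype rest on the labels.

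PTZ blocks the inhibitory GABA-A receptors and provokes seizures, and within an hour of such stimulation neurons switch on immediate early genes. The members are transcripts that were rarer, not more abundant, in that period. Zinc finger genes with these symbols mostly belong to the C2H2 class. There, a pair of cysteines and a pair of histidines hold a zinc ion. The short protein stretch folded around the ion reads a few bases of DNA. In many of these proteins a KRAB domain at the start of the protein recruits the corepressor TRIM28 to silence chromatin, in the Zbtb proteins a BTB domain lets the proteins pair with each other, and in the Zscan and Zkscan proteins a SCAN domain does so. KRAB zinc finger genes have multiplied in tandem in mammals, so that many have close relatives on the same chromosome. Their products are best known for silencing transposons and for binding scattered sites in the genome.

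All values are FPKM, sequenced fragments scaled to the length of the transcript and to the size of the library, as the authors computed them. A response is the log2 ratio of PTZ to sham in 1 genotype, with no pseudocount, so a negative value is a lower level with PTZ. Where 4 FPKM values stand in a row they are in the order tau+/+ sham, tau+/+ PTZ, tau-/- sham and tau-/- PTZ, and a pair of log2 responses gives tau+/+ first. With 1 library per condition there is no replicate check, no SD and no test, and each difference below compares libraries, not conditions. The depth of each library cannot be taken from FPKM, but the methods state a minimum that every sample reached. At that minimum, and with GENCODE transcript lengths, the tau+/+ PTZ values of the 52 members with a gene model would stand for about 12.7 (Gm13629) to 1202 (Rfx3) fragments, with a median of 109.1. The counting error (SE) of a log2 response would then have a median of about 0.17 in tau+/+ and 0.16 in tau-/-, and reach 0.47 and 0.42 in Gm13629. These are estimates from a lower limit on depth, and they cover counting error only, not the spread between mice. Counting error matters here, since the median of the 53 members was 2.39 FPKM in tau+/+ sham and 1.31 FPKM in tau+/+ PTZ, against 3.35 and 5.44 FPKM over the whole list. In bulk tissue, fewer cells of a type and less RNA per cell cannot be told apart.

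The tau-/- PTZ library stood apart in markers of the choroid plexus, the epithelium that secretes cerebrospinal fluid. The 15 of 19 such markers on the list summed to 1587 FPKM in tau+/+ sham, 2639 FPKM in tau+/+ PTZ and 1169 FPKM in tau-/- sham but to 41.8 FPKM in tau-/- PTZ, and all 15 were lowest there, none at 0. None of them is a member, and 46 of all 230 genes were lowest in that library. The marker lists were written with earlier results of these data known, so the number of markers listed is only a description. Genes that rose in tau+/+ were on the list only if their tau-/- response was missing or milder. Of the meningeal markers, 5 of 9 were listed, with a sum of 15.9, 26.2, 16.7 and 11.0 FPKM in the same order. Of the ependymal markers, 2 of 5 were listed, with sums of 2.53, 5.53, 2.02 and 2.83 FPKM. None of the oligodendrocyte, astrocyte and general neuron markers was on the list, so the tissue could not be checked against them. The part of these cell types in the values below was not tested.

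Among the members, the zinc finger symbols did mark C2H2 proteins. In the GENCODE gene models, all 22 encode at least 1 C2H2 finger by the spacing C-x(2,4)-C-x12-H-x(3,5)-H, with 3 to 23 fingers and a median of 11.5. Among all 21951 coding genes of that annotation, 3.66% encode such a finger. The linker TGEKP, which joins neighboring fingers, was found in 19 of the 22 and in 2.18% of all coding genes. A KRAB letter pattern, F-x-D-V-x3-F-x3-E-W-x2-L, was found in 13 of the 22 and in 0.870% of all coding genes, and the pattern misses KRAB domains with other letters. Of the 29 protein-coding genes among the other members that could be placed, only Klf5, with 3 fingers, and Plagl2, with 6, encode a finger, and none has the KRAB pattern. The coding strands of 3 fingers show what the class has in common and how its members differ, for the zinc finger member with the largest fall, the one with the smallest fall and a BTB member. Capitals mark the codons of the cysteine and histidine pairs, and the lines of Zfp105 and Zfp26 run on through the codons of the linker TGEKP.
Zfp105, finger 1 of 11, residues 221 to 246, chr9:122929926-122930003 (GRCm38, plus strand): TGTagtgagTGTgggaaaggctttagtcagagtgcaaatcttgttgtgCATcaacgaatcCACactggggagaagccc
Zfp26, finger 4 of 22, residues 402 to 427, chr9:20437986-20438063 (GRCm38, minus strand): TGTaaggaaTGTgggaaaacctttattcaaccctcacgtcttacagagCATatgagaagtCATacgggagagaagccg
Zbtb6, finger 1 of 4, residues 302 to 322, chr2:37428949-37429011 (GRCm38, minus strand): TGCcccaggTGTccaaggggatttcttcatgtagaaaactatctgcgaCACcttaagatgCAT
All 3 stretches lie in a coding exon. The Zfp105 and Zfp26 fingers have the same spacing and the same linker, while the Zbtb6 finger is not followed by it.

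The zinc finger members had low and closely grouped levels. In tau+/+ sham they ranged from 1.29 to 3.83 FPKM, with a median of 2.17 FPKM, and in tau+/+ PTZ from 0.701 to 2.30 FPKM, with a median of 1.19 FPKM. In tau-/- the medians were 1.95 FPKM with sham and 1.62 FPKM with PTZ. All 22 were lowest in tau+/+ PTZ, which the choice of genes largely fixed, and 7 of them were under 1 FPKM in some library. The highest library was tau+/+ sham for 15 and tau-/- sham for 7. The choice of genes excludes tau+/+ PTZ as the highest library, and tau-/- PTZ was the highest in 0 of all 230 genes of the list.

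**Figure D1:**
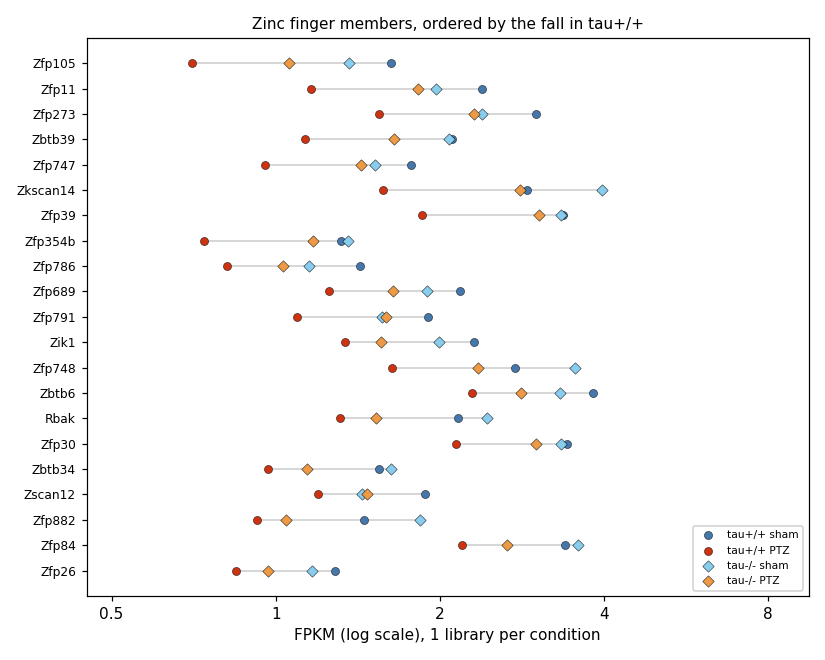
FPKM on a log axis of 21 of the 22 zinc finger members in the 4 libraries, 1 symbol per library (circles tau+/+, diamonds tau-/-) and a gray line over the range of each gene, ordered by the fall in tau+/+. The tau+/+ PTZ value is the lowest in all 21 genes shown, and the tau-/- PTZ value lies between it and the tau+/+ sham value in each.

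Zfp105 showed the largest fall of the class. It had 1.63 FPKM in tau+/+ sham, 0.701 FPKM in tau+/+ PTZ, 1.36 FPKM in tau-/- sham and 1.06 FPKM in tau-/- PTZ, which makes log2 responses of −1.22 and −0.36. The gene lies at chr9:122923072-122931028 on the plus strand (GRCm38). Zfp11, on chromosome 5 and with 21 fingers, had 2.39, 1.16, 1.97 and 1.82 FPKM in the same order, with log2 responses of −1.04 and −0.11. These were the only zinc finger members past 2-fold in tau+/+, and both were within 1.5-fold in tau-/-. Next came Zfp273 at 3.01, 1.55, 2.39 and 2.32 FPKM, Zbtb39 at 2.11, 1.13, 2.08 and 1.65 FPKM and Zfp747 at 1.77, 0.956, 1.52 and 1.43 FPKM. Their log2 responses in tau+/+ lay between −0.96 and −0.89, and those in tau-/- were −0.05, −0.33 and −0.09. Zfp273 and Zfp747 were thus near their sham level in tau-/-, while the BTB gene Zbtb39 was lower in both genotypes.

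At the other end, Zfp26 had 1.29 FPKM in tau+/+ sham, 0.847 FPKM in tau+/+ PTZ, 1.16 FPKM in tau-/- sham and 0.970 FPKM in tau-/- PTZ, with log2 responses of −0.60 and −0.26. Zfp84 had 3.39, 2.20, 3.58 and 2.66 FPKM and log2 responses of −0.63 and −0.43. Zfp882 had 1.45, 0.924, 1.84 and 1.05 FPKM. Its responses of −0.65 and −0.82 on the log2 scale made it the only zinc finger member whose level was reduced by as much or more in tau-/-. The list was drawn up for genes that respond less or not at all in tau-/-, so a milder tau-/- response in the other members is a description of the choice. The authors' deposited comparisons set tau-/- PTZ against tau+/+ sham, and with that baseline the log2 ratio of Zfp882 was −0.48.

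Across the class, the log2 response in tau-/- had a median of −0.23 and ran from −0.82 to 0.08, against a median of −0.80 in tau+/+. The level was lower with PTZ than with sham in tau-/- in 19 of the 22 zinc finger genes, where 58.7% of the whole list was lower. Among the 3 exceptions, Zscan12 and Zfp791 each had a log2 response of 0.03 in tau-/-. Of the 19, only 3 passed 1.5-fold, namely Zfp882, Rbak and Zfp748, where 16.5% of the list passed 1.5-fold in that direction. A count of 3 of 22 is close to that background, but the share includes the rising genes, of which 31 of 175 passed. Rbak, a KRAB zinc finger protein that binds the retinoblastoma protein, had 2.16, 1.31, 2.44 and 1.53 FPKM and log2 responses of −0.72 and −0.68, nearly equal in the 2 genotypes. Zfp748, with 23 fingers the longest array among the members, had 2.75, 1.63, 3.55 and 2.35 FPKM and log2 responses of −0.75 and −0.59. None of the 22 was past 1.5-fold higher in tau-/-, where 8.7% of the list was, and none was more than 25% higher, where 19.1% of the list was.

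The sham libraries themselves differed little for the zinc finger members. The log2 difference of tau-/- sham from tau+/+ sham had a median of −0.16 and ran from −0.38 to 0.45, and none of the 22 was past 1.5-fold in either direction. The median was −0.015 in the 7 zinc finger members with a mean of at least 2 FPKM and −0.27 less the median of the whole list. In tau-/- sham, 15 were lower and 7 were higher, where 41.3% of the whole list was lower. Zkscan14, a SCAN and zinc finger gene, had the largest difference upward, with 2.89 FPKM in tau+/+ sham, 1.58 FPKM in tau+/+ PTZ, 3.96 FPKM in tau-/- sham and 2.81 FPKM in tau-/- PTZ. From this higher start its log2 response in tau-/- was −0.50, so that with PTZ it ended near the tau+/+ sham level. Zfp748, Zfp882 and Rbak also had higher sham values in tau-/-, by 0.37, 0.34 and 0.18 on the log2 scale. These are the 3 members with a zinc finger symbol past 1.5-fold lower in tau-/-. The tau-/- response and the sham difference share the tau-/- sham library, so a high value there gives both a higher sham difference and a larger fall. The sham difference also shares the tau+/+ sham library with the contrast that chose the genes.

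Some zinc finger members are neighbors in the genome, and the genes of a cluster can share reads. Zfp84 and Zfp30 follow each other on chromosome 7 with 4176 bases and no other coding gene between them. Zfp30 had 3.42 FPKM in tau+/+ sham, 2.14 FPKM in tau+/+ PTZ, 3.33 FPKM in tau-/- sham and 3.01 FPKM in tau-/- PTZ, so its tau-/- log2 response was −0.15 where that of Zfp84 was −0.43. Zfp747 and Zfp689 are 66085 bases apart on chromosome 7, with 4 coding genes between them, and Zfp689 had 2.18, 1.3, 1.89 and 1.64 FPKM. Outside the zinc finger class, Rnd1 and Bcdin3d on chromosome 15 were the only pair closer than 1000000 bases. The methods speak of read pairs with an unambiguous alignment, but how pairs that matched several near-identical fingers were treated is not given in the sources used here, so single values of these paralogs are uncertain. In addition, exons of Zbtb6 overlap those of Zbtb26, and exons of Zfp882 those of Zfp617, on the same strand. Exons of 6 more zinc finger members, among them Zbtb39 over Gpr182 and Zfp26 over Gm26733, overlap a gene on the other strand. Whether the libraries kept the strand is not stated, so reads of such pairs cannot be told apart.

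A further 8 zinc finger members filled the middle of the range in tau+/+, with log2 responses from −0.86 for Zfp39 to −0.65 for Zscan12. Zfp39 had 3.37, 1.86, 3.34 and 3.04 FPKM, with equal sham levels and a log2 response of −0.13 in tau-/-. Zfp354b had 1.32, 0.739, 1.36 and 1.17 FPKM and showed the same shape at a lower level. Zbtb6, the zinc finger member with the highest tau+/+ sham value, had 3.83, 2.30, 3.32 and 2.82 FPKM and a log2 response of −0.24 in tau-/-. Zbtb34, another BTB gene, had 1.54, 0.967, 1.63 and 1.14 FPKM and a log2 response of −0.51 in tau-/-. Zik1, whose product binds the RNA-binding protein hnRNP K, had 2.31, 1.34, 2.0 and 1.56 FPKM, with −0.35 in tau-/-. Zfp786 had 1.43, 0.813, 1.15 and 1.03 FPKM, Zfp791 had 1.90, 1.09, 1.57 and 1.60 FPKM, and Zscan12, a SCAN gene, had 1.88, 1.19, 1.44 and 1.47 FPKM. The last 3 had lower sham levels in tau-/- than in tau+/+ and log2 responses of −0.15, 0.03 and 0.03 there.

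The direction was not shared by every zinc finger gene of the list. By the symbol rule, 24 of the 230 genes qualify, of which 22 were lower and 2 higher after PTZ in tau+/+. The 2 higher ones, Zfp36 and Zfp36l2, encode CCCH proteins that bind AU-rich RNA and are not C2H2 factors. Zfp36 had 2.12 FPKM in tau+/+ sham, 11.3 FPKM in tau+/+ PTZ, 3.04 FPKM in tau-/- sham and 5.52 FPKM in tau-/- PTZ. Zfp36l2 had 7.90, 13.3, 4.65 and 9.57 FPKM. Among C2H2 genes under other symbols, 8 were listed, of which 6 were higher (Egr1, Egr2, Egr3, Egr4, Klf2 and Klf4) and 2 lower (Klf5 and Plagl2). The C2H2 genes on the list were therefore found on both sides, with the Zfp, Zbtb, Zkscan and Zscan genes lower and the Egr genes higher.

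The other 31 members had somewhat higher levels, with medians of 2.67 FPKM in tau+/+ sham, 1.48 FPKM in tau+/+ PTZ, 2.13 FPKM in tau-/- sham and 2.14 FPKM in tau-/- PTZ. Their log2 responses had medians of −0.87 in tau+/+ and −0.04 in tau-/-, where they ran from −0.80 to 0.68. In tau-/-, 17 were lower and 14 higher with PTZ. That leaves 36 of the 53 members lower in tau-/-, beside 58.7% of the whole list. The spread in tau-/- was wider than among the zinc finger members, since 7 of the 31 were more than 25% higher there and 8 more than 20% lower (0.32 on the log2 scale either way). Over the whole list these shares were 19.1% and 31.7%, so neither count stands far from the background. Both shares include the rising genes, of which 37 and 54 of 175 passed these limits.

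**Figure D2:**
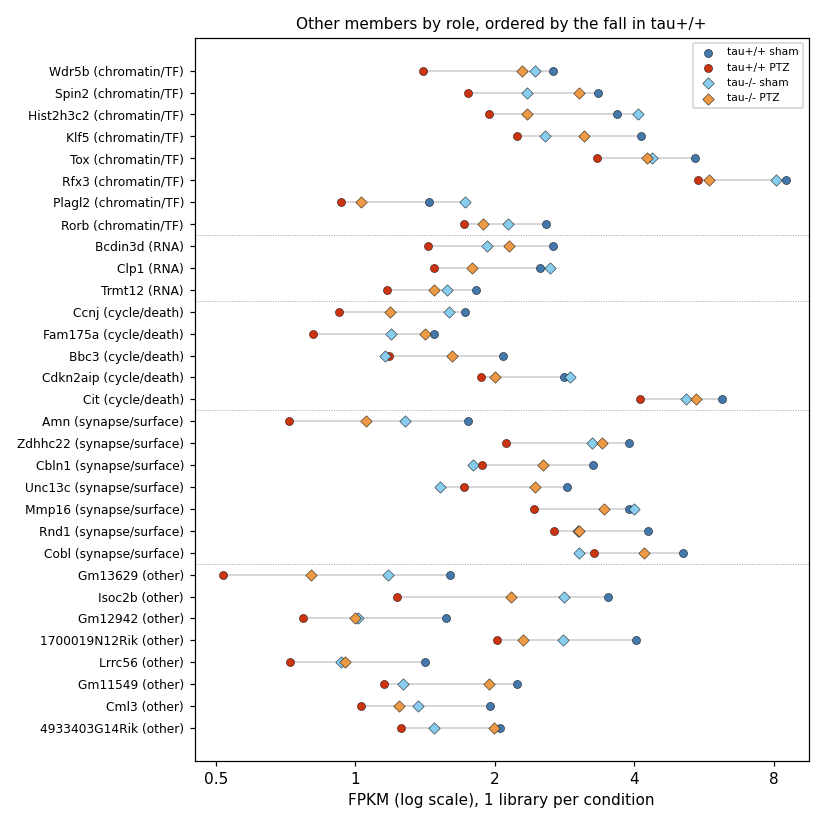
FPKM on a log axis of the other 31 members in the 4 libraries (circles tau+/+, diamonds tau-/-), grouped by role with dotted lines between the groups and ordered by the fall in tau+/+ within each. In 27 of the 31 genes tau+/+ PTZ is the lowest library, and in Unc13c, Cbln1, Bbc3 and Cobl tau-/- sham is.

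The largest falls of all members were in genes with no common role. Gm13629, annotated as an antisense gene over the sodium channel gene Scn9a at chr2:66440880-66546026 (GRCm38, plus strand), had 1.60 FPKM in tau+/+ sham, 0.517 FPKM in tau+/+ PTZ, 1.18 FPKM in tau-/- sham and 0.801 FPKM in tau-/- PTZ. Its log2 responses were −1.63 and −0.55, and since its exons overlap those of Scn9a on the other strand, reads of both cannot be told apart without strand. Isoc2b, which encodes an isochorismatase-domain protein at chr7:4844959-4870258 (minus strand), had 3.51, 1.23, 2.81 and 2.16 FPKM, with log2 responses of −1.52 and −0.38. Amn, whose product amnionless carries cubilin to the surface of absorbing epithelia, had 1.75, 0.718, 1.28 and 1.06 FPKM, with −1.28 and −0.28. Gm12942, also named Tmem35b, had 1.57, 0.770, 1.01 and 0.996 FPKM, with −1.03 and −0.02. These 4 make up, with Zfp105 and Zfp11, the 6 members past 2-fold in tau+/+. 1700019N12Rik, the sperm channel gene Catsperz, came next at 4.04, 2.02, 2.81 and 2.30 FPKM, with −1.0 and −0.29, and its exons overlap Kcnk4 on the same strand. All 5 were lower in tau-/- sham than in tau+/+ sham, as were 41 of all 53 members and 41.3% of the list. None of the 5 passed 1.5-fold between sham and PTZ in tau-/-, where 46 of the 53 members and 74.8% of the list stayed within it.

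The transcription and chromatin group of 8 genes held the highest member. Rfx3, a winged-helix factor that drives genes of cilia, had 8.50 FPKM in tau+/+ sham, 5.48 FPKM in tau+/+ PTZ, 8.07 FPKM in tau-/- sham and 5.79 FPKM in tau-/- PTZ. Its sham levels were close and its log2 responses were −0.63 and −0.48, so it was lower with PTZ in both genotypes. Tox, an HMG-box protein, had 5.41, 3.31, 4.37 and 4.25 FPKM, with −0.71 and −0.04. Rorb, a nuclear receptor known for layer 4 of the cortex, had the smallest fall of all members, at 2.58, 1.71, 2.13 and 1.88 FPKM, with −0.59 and −0.18. The gene nearest to the rule on the other side was Col4a2, which was higher with PTZ in tau+/+, 8.14 against 5.42 FPKM, a log2 response of 0.59. The list holds no gene between these, because it was limited to changes past 1.5-fold.

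The other genes of this group went different ways in tau-/-. Hist2h3c2, a histone H3 gene, had 3.68 FPKM in tau+/+ sham, 1.94 FPKM in tau+/+ PTZ, 4.06 FPKM in tau-/- sham and 2.34 FPKM in tau-/- PTZ, with log2 responses of −0.92 and −0.80. Plagl2, a C2H2 factor, had 1.44, 0.929, 1.72 and 1.03 FPKM, with −0.63 and −0.74. These 2 were the only members without a zinc finger symbol past 1.5-fold lower in tau-/-, though Plagl2 does encode fingers. Plagl2 was, beside Zfp882, the only member whose level was reduced by as much in tau-/- as in tau+/+. With tau+/+ sham as the baseline, the log2 ratio of Plagl2 in tau-/- PTZ was −0.49. Klf5, a Krüppel-like C2H2 factor, had 4.13, 2.23, 2.57 and 3.11 FPKM, with −0.89 and 0.28. Spin2, of the spindlin family of histone readers, had 3.34, 1.75, 2.34 and 3.04 FPKM, with −0.94 and 0.38. Wdr5b, a single-exon relative of the histone methyltransferase subunit Wdr5, had 2.67, 1.40, 2.44 and 2.29 FPKM, with −0.94 and −0.09. Spin2 and Hist2h3c2 have near-identical copies, so their values are uncertain. Over the 8 genes the median log2 response in tau-/- was −0.14, with 6 lower and 2 higher.

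The RNA group held 3 genes. Clp1, an RNA kinase of tRNA splicing and mRNA 3′ end formation, had 2.51, 1.48, 2.62 and 1.78 FPKM, with −0.76 and −0.56 on the log2 scale. Trmt12, an enzyme of wybutosine synthesis in tRNA, had 1.82, 1.17, 1.58 and 1.48 FPKM, with −0.64 and −0.09. Bcdin3d, which methylates the 5′ phosphate of small RNAs, had 2.67, 1.43, 1.93 and 2.14 FPKM, with −0.89 and 0.15. Only Clp1 was lower in tau-/- by more than 20%.

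Among the 5 genes of cell cycle, cell death and DNA damage, Bbc3 stood out in tau-/-. Bbc3 encodes PUMA, a BH3-only protein that promotes apoptosis, and had 2.09 FPKM in tau+/+ sham, 1.18 FPKM in tau+/+ PTZ, 1.16 FPKM in tau-/- sham and 1.61 FPKM in tau-/- PTZ. Its level in tau-/- sham was thus as low as in tau+/+ PTZ, and the log2 responses were −0.82 and 0.48. Fam175a, or Abraxas, a subunit of the BRCA1-A complex, had 1.48, 0.809, 1.19 and 1.41 FPKM, with −0.87 and 0.25. Cit, the citron kinase of cytokinesis and the second highest member by mean, had 6.19, 4.11, 5.16 and 5.43 FPKM, with −0.59 and 0.07. Lower in both genotypes were Ccnj, or cyclin J, at 1.73, 0.920, 1.59 and 1.18 FPKM, and Cdkn2aip, a binding partner of the tumor suppressor ARF, at 2.82, 1.86, 2.91 and 2.0 FPKM. The log2 responses of Ccnj and Cdkn2aip in tau-/- were −0.43 and −0.54, so neither reached 1.5-fold.

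The 7 genes of synapse, cytoskeleton and cell surface had in tau-/- a median log2 response of 0.08 and a median sham difference of −0.50. Unc13c encodes Munc13-3, a vesicle priming factor of cerebellar synapses, at chr9:73479422-73968966 (minus strand). It had 2.87 FPKM in tau+/+ sham, 1.72 FPKM in tau+/+ PTZ, 1.52 FPKM in tau-/- sham and 2.44 FPKM in tau-/- PTZ, with log2 responses of −0.74 and 0.68. Cbln1, a secreted organizer of the synapse between parallel fibers and Purkinje cells, at chr8:87468405-87472609 (minus strand), had 3.26, 1.87, 1.79 and 2.54 FPKM, with −0.80 and 0.50. Both were highest in tau+/+ sham and lowest in tau-/- sham. They are also the 2 of 6 cerebellar granule cell markers on the list, and their sum was 6.12, 3.59, 3.32 and 4.98 FPKM. The share of cerebellum in each piece of brain is not given, and its part in these values was not tested.

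Cobl, an actin nucleator, showed the same order of libraries, with 5.09, 3.27, 3.03 and 4.20 FPKM and log2 responses of −0.64 and 0.47. Rnd1, whose product loosens the actin cytoskeleton and cell adhesion, had 4.27, 2.69, 3.02 and 3.03 FPKM and log2 responses of −0.67 and 0.01. Zdhhc22, a palmitoyltransferase, had 3.90, 2.12, 3.23 and 3.41 FPKM, with −0.88 and 0.08. Mmp16, a membrane-bound metalloproteinase, had 3.89, 2.43, 3.99 and 3.44 FPKM, with −0.68 and −0.22, and was the only one of the 7 that was not lower in tau-/- sham than in tau+/+ sham.

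Among the 8 genes without an assigned group, the sham difference was downward in all 8, with a median of −0.52. It was downward in 41 of all 53 members and in 41.3% of the list. For the members this is not independent of the choice, as tau+/+ sham was the high side of the contrast that chose them. Gm11549 had 2.23 FPKM in tau+/+ sham, 1.16 FPKM in tau+/+ PTZ, 1.27 FPKM in tau-/- sham and 1.94 FPKM in tau-/- PTZ, with log2 responses of −0.95 and 0.62. Gm11549 and Unc13c were the only members past 1.5-fold higher in tau-/-, 2 of 53 where 8.7% of the list was. 4933403G14Rik, or Map10, a microtubule-associated protein, had 2.05, 1.3, 1.48 and 1.99 FPKM, with −0.71 and 0.43. Lrrc56, a leucine-rich repeat protein, had 1.41, 0.723, 0.929 and 0.949 FPKM, with −0.97 and 0.03. Cml3, of an N-acetyltransferase family with near-identical copies on the mouse genome, had 1.95, 1.03, 1.37 and 1.24 FPKM, with −0.92 and −0.14. Cml3 could not be placed in the gene models, so no coordinates are given for it.

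Set side by side, the classes had close medians in tau+/+ and less close ones in tau-/-. The medians of −0.80 and −0.87 in tau+/+ describe the choice of genes. In tau-/-, the median log2 response was −0.23 for zinc finger members and −0.04 for the others. After subtraction of the median of the whole list, which was −0.10 in tau-/-, these became −0.12 and 0.06, so the sign of the second one turned. The list was itself chosen by the response, and 175 of its 230 genes were rising ones, so its median is not a neutral reference. Past 0.32 on the log2 scale, 9 zinc finger members were lower and 0 higher, against 8 lower and 7 higher among the others, where 31.7% of the list was lower and 19.1% higher. The 7 members more than 25% higher were Unc13c, Gm11549, Cbln1, Bbc3, Cobl, 4933403G14Rik and Spin2, none of them a zinc finger gene. A pseudocount of 1 FPKM, which shrinks ratios of low values, made the tau+/+ medians −0.50 and −0.54, the medians of the difference between PTZ libraries 0.29 and 0.26 and the median sham difference of the others −0.25. The tau-/- response shares the tau-/- sham library with the sham difference, whose class medians were −0.16 and −0.44. With tau+/+ sham as the baseline of tau-/- PTZ, the class medians were close, at −0.37 and −0.41. No test was made of the difference between classes in tau-/-, as genes of 1 library are not replicates.

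**Figure D3:**
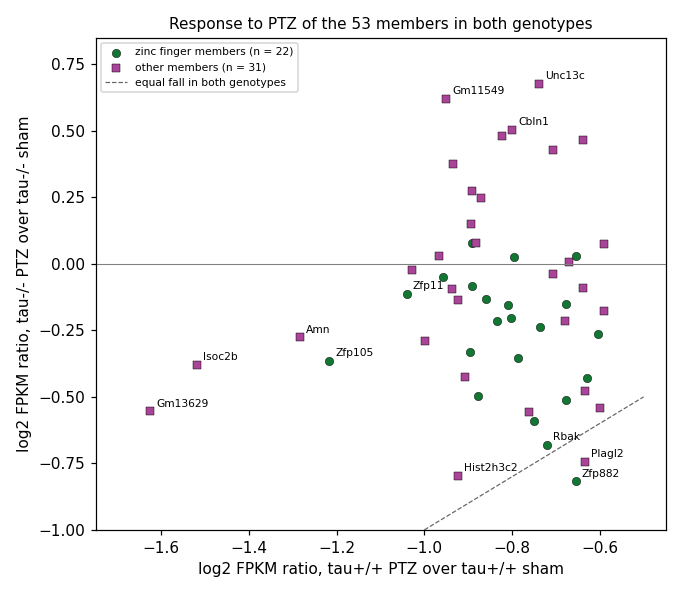
log2 FPKM ratio of PTZ to sham in tau+/+ (horizontal) and tau-/- (vertical) for the 53 members, with zinc finger members as green circles and the others as purple squares. The dashed line marks an equal fall in both genotypes, with only Plagl2 and Zfp882 under it, and 46 of the 53 genes lie within 1.5-fold in tau-/-, as do 74.8% of the list.

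The class medians also differed in the sham libraries. The median log2 difference of tau-/- sham from tau+/+ sham was −0.16 over the zinc finger members (−0.015 at a mean of at least 2 FPKM) and −0.44 over the others (−0.31 at that level), while the whole list had a median of 0.11 and the 175 rising genes 0.23. Among the others, 26 of 31 were lower in tau-/- sham, and 41 of all 53 were, beside 41.3% of the list. Past 1.5-fold lower were 8 of the 53 members, all outside the zinc finger class, where the list had 10%. By size these were led by Unc13c at −0.91, Cbln1 at −0.86, Bbc3 at −0.85, Gm11549 at −0.82, Cobl at −0.75 and Klf5 at −0.69. The tau+/+ sham library was the high side of the contrast that chose the genes, so the direction over all members is not independent of the choice. The lists of both classes were chosen by the same rule, and no test of the difference between them was made. With tau+/+ sham as the common reference, the tau-/- PTZ level was lower in all 53 members. The medians were −0.37 in the zinc finger members and −0.41 in the others. Over the whole list 47.4% was lower, but that share includes the rising genes, of which 54 of 175 were lower. As tau+/+ sham was the high side of the contrast that chose the genes, the count of 53 is not independent of the choice. Past 1.5-fold below tau+/+ sham were 1 zinc finger member, Zfp105, and 7 others, where 13.9% of the list was, so 8 of 53 is close to the background.

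Between the PTZ libraries, all 53 members were higher in tau-/- than in tau+/+, as were all 55 falling genes and none of the rising ones, which is 23.9% of the list. This count follows from how the list was made and is given as a description. The median log2 difference was 0.51 in the zinc finger members and 0.40 in the others, and over the 53 it ran from 0.08 for Rfx3 to 0.84 for Zkscan14. Past 1.5-fold were 6 zinc finger members and 8 others, 14 in all and the only ones on the list (6.09%). Zkscan14, Zfp39, Zfp354b, Zfp11 and Zfp105 were among the 6.

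**Figure D4:**
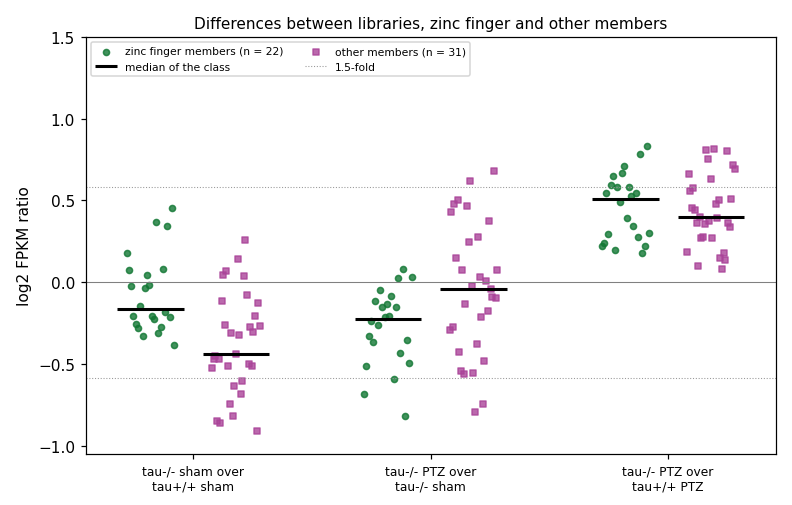
log2 FPKM ratios between libraries for the 22 zinc finger (green circles) and 31 other members (purple squares), 1 point per gene spread sideways for legibility, with the class median as a black bar and 1.5-fold as dotted lines. The medians of the sham difference are −0.16 and −0.44, those of the tau-/- response −0.23 and −0.04, and those of the difference between PTZ libraries 0.51 and 0.40.

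Some features of the gene models, which the rule did not use, are given as a description. The transcripts of the gene models had a median of 3589.5 bases in the zinc finger genes and 2814.5 bases in the others, with a median GC content of 45.1% and 49.1%. The zinc finger genes lie on 9 chromosomes and the others on 14. Each zinc finger gene has at least 2 exons in its model, while Wdr5b, Hist2h3c2, 4933403G14Rik and Trmt12 have 1.

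Promoter windows from RefSeq (GRCm38.p6), reaching from 250 bases before to 50 after the start, were available for 44 of the 53 members, with 51 windows. The motif CCGGAAG, the core of many ETS-family sites, was searched on both strands and was found in 6 of 22 windows of zinc finger members (27.3%) and 7 of 29 windows of the others (24.1%). It was in 8.86% of all 32851 windows and in 11.6% of the windows of protein-coding genes. The zinc finger genes with the motif were Zfp105, Zfp273, Zbtb6, Zbtb34, Rbak and Zscan12. TGACGTCA, the cyclic AMP response element, was in 0 of the 22 windows and in 1 of the 29, that of Wdr5b, against 1.79% of all windows. TATAAA was in 4 of 22 and 2 of 29 windows, against 13.6% of all, and CACGTG, an E-box, in 2 and 3, against 7.15%. The window GC content had a median of 51.8% in the zinc finger members, 60.3% in the others and 56.3% in protein-coding genes. CCGGAAG is itself rich in G and C, and the part of GC content in these shares was not tested. The windows of Zfp105 and Isoc2b are shown because these genes had the largest falls among the members of each class with a window that holds the motif. Capitals mark CCGGAAG, or CTTCCGG where it is on the other strand.
Zfp105, chr9:122922828-122923127 (GRCm38.p6, plus strand), motif from base 210: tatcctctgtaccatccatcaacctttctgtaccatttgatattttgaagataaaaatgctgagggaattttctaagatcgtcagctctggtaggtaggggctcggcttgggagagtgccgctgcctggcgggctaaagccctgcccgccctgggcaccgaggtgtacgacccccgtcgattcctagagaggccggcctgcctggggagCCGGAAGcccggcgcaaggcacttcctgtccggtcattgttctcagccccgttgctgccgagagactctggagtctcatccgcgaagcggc
Isoc2b, chr7:4866130-4866429 (GRCm38.p6, minus strand), motif from base 67 on the other strand: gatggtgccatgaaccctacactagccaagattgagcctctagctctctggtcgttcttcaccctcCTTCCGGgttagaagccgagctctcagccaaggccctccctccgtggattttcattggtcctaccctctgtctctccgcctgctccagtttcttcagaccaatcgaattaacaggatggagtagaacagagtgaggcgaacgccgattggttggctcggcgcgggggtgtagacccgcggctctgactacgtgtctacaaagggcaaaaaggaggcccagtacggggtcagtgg
A match is a run of letters, and no binding was measured here. The Zfp105 match lies before the RefSeq start of its window and close to it. The Isoc2b match also lies before the RefSeq start of its window, farther off but within the 250 bases. The GENCODE span of Isoc2b (chr7:4844959-4870258, minus strand) begins farther upstream, so by that model the window lies inside the gene. No peak or methylation data were used here.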

How the data were processed

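The authors sequenced total RNA of mouse brain as read pairs, 1 library per condition, and deposited FPKM values for 230 selected genes. Per the submitters' processing notes they used CASAVA 1.7, TopHat2 2.03 with Bowtie2 2.0.0.6 on mm10, and Cuffdiff 2.01, and their methods allowed 2 mismatches per read. The annotation they counted on is not given in the sources used here. The table's log2 fold changes and p-values, also deposited, are the authors' own comparisons of tau+/+ PTZ and tau-/- PTZ with tau+/+ sham and were not used. All FPKM columns matched a sample.

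From the FPKM values, log2 ratios were taken with no pseudocount and no filter, and 1.5-fold was the limit of a call, as in the study's methods. A list is described by counts and medians beside those of all 230 genes, since 1 library per condition allows no test. Shares and medians of the whole list include the 175 rising genes, which changed in the opposite direction in tau+/+. Depth per library cannot be read from FPKM. Fragments behind a value were estimated from FPKM, GENCODE transcript length and the minimum depth in the study's methods, and the SE of a log2 ratio from the sum of the inverse fragment counts. The members, role lists, marker lists and alternatives were chosen with earlier results of these data known. Any member could be named, but 1 zinc finger member, kept in all counts and medians, is not reported here. Always named were the 5 largest and 3 smallest tau+/+ falls of each class, the 5 largest falls and every rise of more than 25% in tau-/-, the 5 largest sham differences each way, members whose lowest library was not tau+/+ PTZ or whose tau-/- response was at least as large, and the 3 highest by mean. Gene models were GENCODE M21 (GRCm38), longest coding transcript per gene, with 52 of 53 members matched (46 by symbol, 6 by an older symbol), and promoters RefSeq GRCm38.p6. Scripts ran under Python 3.11.15 (numpy 2.4.6, pandas 2.3.3, matplotlib 3.10.9) and gave the known answer in 12 of 12 checks on simulated data.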

Additional observations from a re-analysis of the deposited data

Results flagged for a closer look

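In 7 members tau-/- PTZ was more than 25% above tau-/- sham while tau+/+ PTZ was below tau+/+ sham, and the difference between genotypes was not tested. These are 7 of 53 members, where 19.1% of the whole list was more than 25% higher in tau-/-. The log2 responses in tau-/- were 0.68 for Unc13c, 0.62 for Gm11549, 0.50 for Cbln1, 0.48 for Bbc3, 0.47 for Cobl, 0.43 for 4933403G14Rik and 0.38 for Spin2. All 7 had a lower tau-/- sham than tau+/+ sham level, as did 41 of all 53 members. In Unc13c, Cbln1, Bbc3 and Cobl tau-/- sham was the lowest of the 4 libraries. None of the 53 members, these 7 included, reached its tau+/+ sham level in tau-/- PTZ. The 7 were picked for a tau-/- PTZ level above tau-/- sham, so their lower tau-/- sham level follows from the pick.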

How the results depend on the processing

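The 74 recomputed medians and counts used other pseudocounts, level filters, baselines and fold limits. Of these, 35 stayed close to the value reported, 38 moved and 1 changed sign. A pseudocount of 0.1 FPKM (12 values) and counting Klf5 and Plagl2 as zinc finger members (8 values) moved none. With a pseudocount of 1 FPKM, the median log2 response in tau+/+ was −0.51 over all members, −0.50 in zinc finger members and −0.54 in the others, the difference between PTZ libraries 0.28, 0.29 and 0.26, and the sham difference of the others −0.25. With tau+/+ sham as the baseline of tau-/- PTZ, the medians were −0.38, −0.37 and −0.41 and the members past 1.5-fold lower 8, 1 and 7. Less the median of the whole list, the tau-/- response was −0.046, −0.12 and, with its sign changed, 0.064, and the sham difference −0.37, −0.27 and −0.55. The list was chosen by the response, so its median is not a neutral reference. In members with a mean of at least 2 FPKM, the sham difference was −0.015 in zinc finger members and −0.31 in the others, and the tau+/+ response of the others −0.76. At a limit of 0.32 on the log2 scale, 17, 9 and 8 members were lower in tau-/-, 18, 2 and 16 lower in tau-/- sham, and 36, 14 and 22 higher in tau-/- PTZ than in tau+/+ PTZ. At 2-fold all of these counts were 0. No paired analysis was possible because each condition has 1 library and the labels carry no replicate numbers, and for the same reason no library could be left out. The values are limited by low FPKM, a depth known only as a minimum and, for 15 members, exons that overlap another gene.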
